A study of Homo sapiens with 9 samples.

Results

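The PEA3 group of ETS transcription factors (ETV1, ETV4 and ETV5) and the genes that restrain ERK signalling after it is switched on (DUSP4, DUSP5, DUSP6, SPRY2, SPRY4, SPRED1 and PHLDA1) were followed in hypoxic OEC-M1 cells, an oral squamous carcinoma line. The set holds 10 genes measured by 14 probes, of 47753 gene names and 58201 probes on the array. Every non-control probe whose transcript maps to one of the symbols in RefSeq was taken. The set was chosen by the log2 difference of ETV5 between GATA3 siRNA and control siRNA, on which ETV5 was higher, so all values of the 10 genes in that comparison, and ETV5 in every comparison, are given as a description without a test.

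The study asked which transcripts of hypoxic cells depend on GATA3 and which on HIF-1α. RNA was hybridised to 9 one-colour Agilent arrays, 3 from cells given non-targeting siRNA (si-Control), 3 from cells given GATA3 siRNA (siGATA3) and 3 from cells given HIF1A siRNA (siHIF1A). All cells were transfected for 72 h and were kept at 1% O2 for 18 h, so no normoxic array is in the comparison. The legend to the array experiment names a single siRNA per target, and an effect of that siRNA cannot be told apart from an effect of losing its target. Numbers in the sample titles were read as replicate numbers. Nothing in the sources says that the replicates were separate cultures, so P values measure the spread between these samples, which may be technical.

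PEA3 factors bind DNA through an ETS domain that recognises a GGAA core, and they are transcribed, stabilised and activated downstream of receptor tyrosine kinases, RAS and ERK. The same signal induces its own brakes. DUSP phosphatases remove phosphate from ERK, and Sprouty and SPRED proteins act further up, between the receptor and RAF. ETV4, ETV5, DUSP6, SPRY2, SPRY4 and PHLDA1 are for this reason widely read together as transcripts that follow ERK activity, in squamous carcinoma as in other epithelial tumours.

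GATA3 itself had a log2 intensity of 10.71, 11.12 and 11.48 on the si-Control arrays and 9.64, 9.48 and 10.40 on the siGATA3 arrays, and the 2 ranges did not overlap. HIF1A was at 16.71, 16.24 and 17.24 on the si-Control arrays and at 14.51, 14.13 and 14.59 on the siHIF1A arrays, also without overlap. Both targeted transcripts were lower than in si-Control on 3 of 3 slides, as labelled. On the siHIF1A arrays GATA3 was at 10.30, 11.11 and 10.78, which overlapped the siGATA3 range. It differed from si-Control by -0.37 there and was lower on 3 of 3 slides. Each slide carried 1 array of every group, and the slide number equals the replicate number. Median spot intensity was between 992.5 and 3560 over the arrays, lowest on si-Control replicate 3. Of 8 squamous markers, 5 (KRT14, KRT17, TP63, CDH1 and EPCAM) were well above background on all 9 arrays, KRT6A on 8 and DSG3 on 3, while KRT5 was on 0. That mark was carried by between 73.3% and 88% of probes per array, and by 3 of 4 fibroblast, 3 of 3 endothelial and 3 of 4 immune markers on all 9 arrays, so it does not separate cell types here.

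Promoters are shown first for DUSP6, PHLDA1 and SPRED1, the 3 members that were higher on the siGATA3 array than on the siHIF1A array of every slide by the largest fitted differences among genes with a RefSeq promoter entry. Each window is the 250 bases before the transcription start in RefSeq on GRCh38.p14, 5′ to 3′ on the gene's strand. Capitals mark the ETS core, GGAA or its reverse complement TTCC. The DUSP6 window is chr12:89352502-89352751 on the minus strand, the PHLDA1 window is chr12:76031777-76032026 on the minus strand, and the SPRED1 window is chr15:38252586-38252835 on the plus strand.
DUSP6: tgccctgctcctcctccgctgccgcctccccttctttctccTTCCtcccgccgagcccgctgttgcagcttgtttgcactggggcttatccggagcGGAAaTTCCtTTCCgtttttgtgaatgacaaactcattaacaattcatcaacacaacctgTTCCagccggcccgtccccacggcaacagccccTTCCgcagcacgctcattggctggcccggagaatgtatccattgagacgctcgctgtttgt
PHLDA1: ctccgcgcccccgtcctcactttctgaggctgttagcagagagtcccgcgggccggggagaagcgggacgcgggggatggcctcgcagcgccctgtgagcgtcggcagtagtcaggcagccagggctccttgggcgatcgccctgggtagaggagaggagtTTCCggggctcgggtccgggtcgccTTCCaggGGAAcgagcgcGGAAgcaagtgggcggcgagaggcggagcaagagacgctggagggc
SPRED1: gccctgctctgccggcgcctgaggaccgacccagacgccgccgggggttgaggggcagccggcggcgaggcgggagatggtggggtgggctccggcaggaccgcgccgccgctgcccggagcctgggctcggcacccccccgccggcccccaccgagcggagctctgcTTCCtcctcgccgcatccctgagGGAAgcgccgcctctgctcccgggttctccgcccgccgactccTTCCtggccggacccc

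The DUSP6 window held 6 ETS cores, the PHLDA1 window 4 and the SPRED1 window 3. A GGAA core was found on either strand in 92.7% of 35116 RefSeq promoters of the same length, with a median of 3 per promoter, so its presence is the usual state. RefSeq entries were at hand for 6 of the 10 members (DUSP6, ETV1, PHLDA1, SPRED1, SPRY2 and SPRY4), in 13 windows, and all 13 held the core. The GATA core, spelled GATA, was in 7 of the 13 windows and in 45.6% of all promoters, and DUSP6 had 2 matches. The HIF core was searched as ACGTG and as GCGTG, on both strands. ACGTG was in 3 windows, all of them ETV1, against 18.5% of promoters, and GCGTG in 2, of DUSP6 and ETV1, against 32.2%. The AP-1 site TGANTCA was in 0 of the 13 windows and in 6.57% of promoters. Several windows of ETV1 and SPRY2 overlap or belong to a single gene, and matches that shared letters were counted separately. A match is a run of letters and not a measured binding site.

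ETV5, the PEA3 factor whose level chose the set, was lowest in si-Control. Its log2 intensity was 7.85, 8.11 and 10.76 on si-Control arrays 1, 2 and 3, 11.29, 10.39 and 11.93 on the siGATA3 arrays, and 10.21, 10.32 and 10.74 on the siHIF1A arrays. The first 2 si-Control arrays were low, and the third was as high as the siHIF1A arrays and inside the siGATA3 range. On si-Control replicate 1 the ETV5 probe was not well above background, and on the other 8 arrays it was. The group means ran from 11.20 ± 0.77 (SD, n = 3) in siGATA3 to 10.42 ± 0.28 (SD, n = 3) in siHIF1A and 8.91 ± 1.61 (SD, n = 3) in si-Control. Neighbouring groups in that order overlapped in their ranges. In RNA of whole cultures, fewer cells with the transcript and less transcript per cell cannot be told apart. ETV5 was 4.92-fold higher in siGATA3 than in si-Control, a log2 difference of 2.30 (standard error 0.69). Within slides 1, 2 and 3 the difference was 3.44, 2.28 and 1.17, and over fits that left out 1 array it lay between 1.77 and 3.23. Against si-Control, siHIF1A differed by 1.52 on the log2 scale, with 2.36 and 2.21 on slides 1 and 2 and -0.02 on slide 3. The siGATA3 level exceeded the siHIF1A level by 0.78, with 1.08, 0.07 and 1.19 within slides. ETV5 was thus above si-Control in both knockdowns on slides 1 and 2, and in siGATA3 alone on slide 3.

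ETV4, the PEA3 member first described as an enhancer-binding activator of polyomavirus, was higher in siHIF1A. Its log2 intensity was 11.35, 11.14 and 12.08 on the si-Control arrays, 12.13, 11.45 and 12.54 on the siGATA3 arrays, and 12.53, 12.19 and 12.50 on the siHIF1A arrays. All 3 siHIF1A arrays were above all 3 si-Control arrays, and the siGATA3 arrays spanned both. The difference between siHIF1A and si-Control was 0.88 (1.84-fold, standard error 0.34, adjusted P = 0.823 from limma), below the unadjusted P of 0.05 used as the threshold and far above it after adjustment. It was 1.18, 1.05 and 0.42 within slides 1, 2 and 3. The call was lost without si-Control replicate 1 (0.79), si-Control replicate 2 (0.69), siHIF1A replicate 1 (0.82) or siHIF1A replicate 3 (0.84). The siGATA3 minus si-Control difference was 0.51 with 3 of 3 slides higher, and siGATA3 minus siHIF1A was -0.37 (adjusted P = 0.597 from limma, 95% interval -1.13 to 0.39).

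**Figure D1:**
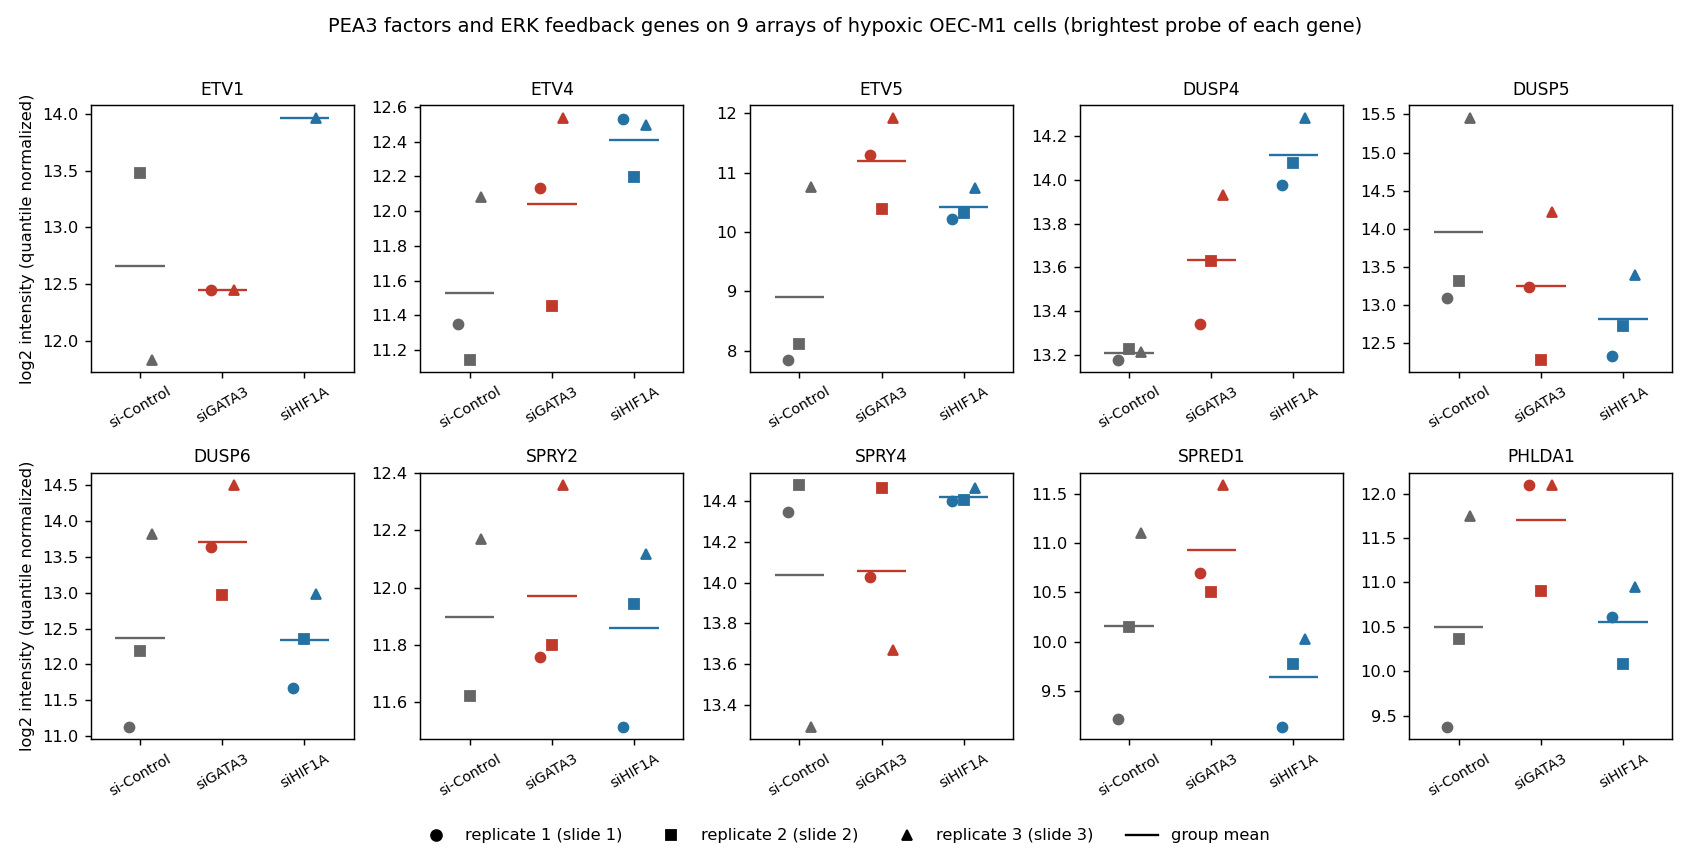
Quantile normalized log2 intensity (vertical axis, a scale of its own for each gene) of the 10 genes on each array, by group, with circles, squares and triangles for replicates 1, 2 and 3 and a line at the group mean. DUSP4 ran in steps from si-Control to siGATA3 to siHIF1A without overlap, ETV5 was low on 2 si-Control arrays, and replicate 3 was the highest array of its group in many panels.

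ETV1, the third PEA3 factor, was read by 4 probes of a single transcript, all well above background on 9 of 9 arrays, and the probes did not run together. The brightest probe, A_33_P3357954, was left with 5 arrays after spots marked as non-uniform were removed. Its log2 intensity was 13.48 and 11.83 on si-Control arrays 2 and 3, 12.45 and 12.45 on siGATA3 arrays 1 and 3, and 13.97 on siHIF1A array 3. With non-uniform spots kept it was 13.92, 13.45 and 11.80 in si-Control, 12.41, 13.19 and 12.40 in siGATA3, and 14.02, 13.11 and 13.99 in siHIF1A. By this probe ETV1 was lower in siGATA3 than in siHIF1A, by -1.52 (adjusted P = 0.430 from limma), with a lone siHIF1A array that was assumed to vary like the others.

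The probe A_32_P78491 gave the opposite order. It was at 9.74, 9.92 and 10.72 in si-Control, 12.62, 10.53 and 12.36 in siGATA3, and 9.58, 9.65 and 9.39 in siHIF1A. Every siGATA3 array was above every siHIF1A array, and every siHIF1A array was below every si-Control array by a mean of -0.59 (adjusted P = 0.828 over all probes). The siGATA3 minus siHIF1A difference was 2.30 (4.93-fold, standard error 0.50, adjusted P = 0.208 from limma over all probes), with 3.04, 0.89 and 2.97 within slides. It passed the unadjusted threshold in 9 of 9 fits that left out 1 array, as did 12.3% of all probes in the fit of all arrays. Of the other probes, A_33_P3357949 was at 9.44, 9.03 and 10.01 in si-Control, 10.87, 9.74 and 10.53 in siGATA3, and 10.02, 9.64 and 9.38 in siHIF1A, a siGATA3 minus siHIF1A difference of 0.70 (adjusted P = 0.431). The last, A_33_P3401156, was at 8.21, 8.27 and 9.62, then 9.77, 8.77 and 9.77, then 9.65, 9.23 and 9.15 in the same order of groups, a difference of 0.09. Compared with si-Control, these 3 probes were higher in siGATA3 on 3 of 3 slides, by 1.71, 0.88 and 0.74. Across the arrays measured, the brightest probe had a Pearson correlation of -0.68, -0.71 and -0.69 with the 3 others, and the 3 had between 0.54 and 0.86 among themselves, values that share arrays and normalization. Which probe reads the ETV1 transcript was not tested.

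**Figure D2:**
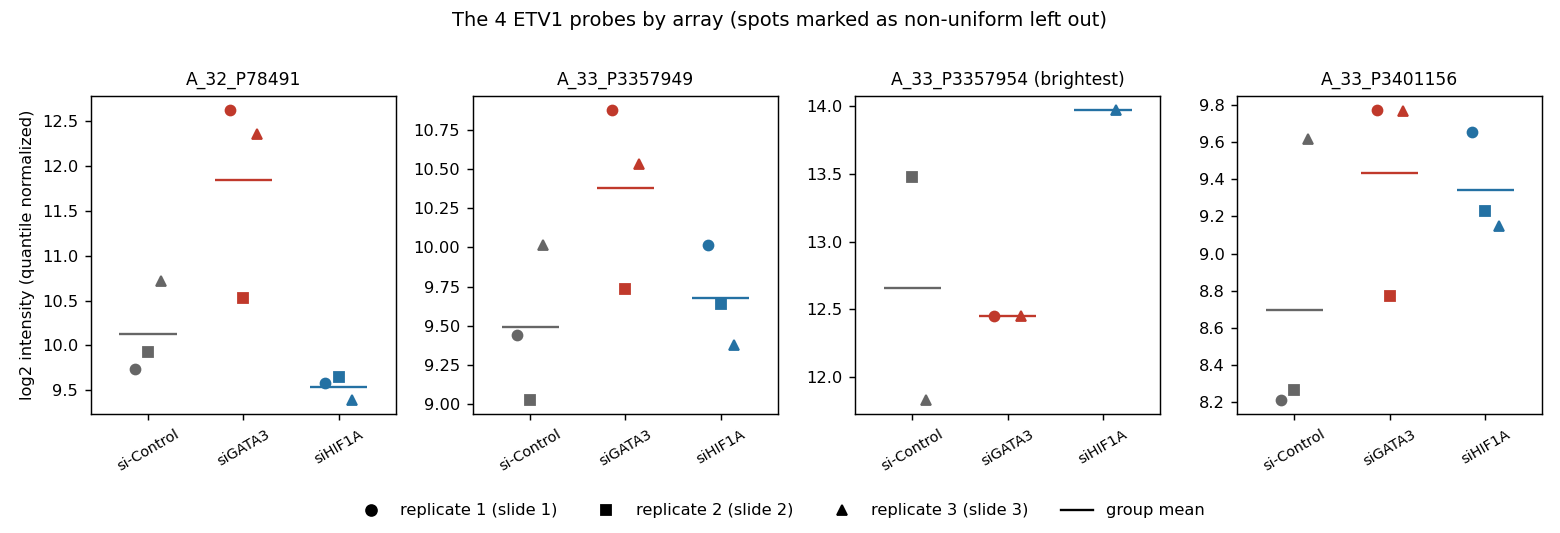
Log2 intensity of the 4 ETV1 probes by group and array, each on its own vertical scale, with symbols for replicates and a line at the group mean, and non-uniform spots left out. The brightest probe has 5 points and is highest on its only siHIF1A array, whereas A_32_P78491 has all 3 siHIF1A arrays at the bottom.

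Among the phosphatases, DUSP4 was the member with the steadiest difference. DUSP4 is a nuclear phosphatase of ERK and other MAP kinases. Its log2 intensity was 13.18, 13.23 and 13.22 on the si-Control arrays, 13.34, 13.63 and 13.93 on the siGATA3 arrays, and 13.97, 14.07 and 14.28 on the siHIF1A arrays. No 2 groups overlapped, with si-Control lowest and siHIF1A highest. The siHIF1A minus si-Control difference was 0.90 (1.87-fold, standard error 0.23, adjusted P = 0.695 from limma), past the unadjusted threshold but not after adjustment. It was 0.79, 0.85 and 1.07 within slides and passed the unadjusted threshold in 9 of 9 fits that left out 1 array, with 0.82 to 0.97. The siGATA3 minus si-Control difference was 0.43, and siGATA3 minus siHIF1A was -0.48 (adjusted P = 0.425), lower on 3 of 3 slides.

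DUSP5, a nuclear phosphatase specific to ERK, ran the other way in siHIF1A. It was at 13.10, 13.32 and 15.46 in si-Control, 13.23, 12.28 and 14.22 in siGATA3, and 12.33, 12.72 and 13.39 in siHIF1A. The third si-Control array was far above the rest, and the groups overlapped. Compared with si-Control, the siHIF1A difference was -1.14 (standard error 0.66, adjusted P = 0.823 from limma), with -0.77, -0.60 and -2.07 within slides. It did not pass the unadjusted threshold with all arrays, and passed it without si-Control replicate 1 (-1.57) and with the slide as a block. Without si-Control replicate 3 the difference was -0.39. The siGATA3 minus si-Control difference was -0.71, with 2 of 3 slides lower, and siGATA3 minus siHIF1A was 0.43 (adjusted P = 0.752).

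DUSP6, the cytoplasmic ERK phosphatase, was higher in siGATA3 than in the other groups on every slide. It was at 11.12, 12.18 and 13.82 in si-Control, 13.65, 12.97 and 14.51 in siGATA3, and 11.67, 12.35 and 12.99 in siHIF1A. The ranges of the groups overlapped. The siGATA3 minus siHIF1A difference was 1.37 (2.59-fold, standard error 0.65, adjusted P = 0.424 from limma), with 1.97, 0.62 and 1.52 within slides. It did not pass the unadjusted threshold, and passed it with the slide as a block, in a separate fit of the 6 arrays and in 4 of 9 fits that left out 1 array. Fits without a si-Control array change the standard error of this difference and not its size. The siGATA3 minus si-Control difference was 1.33, with 2.52, 0.79 and 0.69 within slides. Between siHIF1A and si-Control the difference was -0.04 (adjusted P = 0.991), with a 95% interval of -1.49 to 1.42 that leaves room for a change in either direction.

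The Sprouty proteins, which block RAS activation by receptors, had small differences, none past the threshold. SPRY2 was at 11.62 and 12.17 on si-Control arrays 2 and 3, since the spot on si-Control replicate 1 was marked as non-uniform and was missing from the fit. It was at 11.76, 11.80 and 12.36 in siGATA3 and at 11.51, 11.94 and 12.12 in siHIF1A. The ranges of the 3 groups overlapped. Its differences were 0.08 for siGATA3 minus si-Control, -0.04 for siHIF1A minus si-Control (adjusted P = 0.980, 95% interval -0.78 to 0.70) and 0.11 for siGATA3 minus siHIF1A (adjusted P = 0.861).

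SPRY4 was read by 2 probes of different transcripts. The brightest, A_33_P3338423, was at 14.35, 14.48 and 13.29 in si-Control, 14.03, 14.46 and 13.67 in siGATA3, and 14.40, 14.40 and 14.46 in siHIF1A. The other, A_24_P269062, was at 11.29, 11.05 and 11.34 in si-Control, 11.25, 11.38 and 12.46 in siGATA3, and 11.25, 11.13 and 11.10 in siHIF1A. On slide 3 the siGATA3 array was below the siHIF1A array by the first probe and above it by the second. The siGATA3 minus siHIF1A difference was -0.37 (adjusted P = 0.598 from limma) by the first and 0.53 by the second, and neither passed the unadjusted threshold. By the brightest probe SPRY4 differed by 0.02 between siGATA3 and si-Control and by 0.38 between siHIF1A and si-Control (adjusted P = 0.823), of which slide 3 had 1.17 and slides 1 and 2 had 0.05 and -0.07.

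SPRED1, a relative of the Sproutys that holds the RAS inactivator neurofibromin at the membrane, differed between the 2 knockdowns. It was at 9.22, 10.14 and 11.10 in si-Control, 10.70, 10.50 and 11.59 in siGATA3, and 9.13, 9.77 and 10.03 in siHIF1A. All siGATA3 arrays were above all siHIF1A arrays, and si-Control spanned both. The siGATA3 minus siHIF1A difference was 1.29 (2.44-fold, standard error 0.48, adjusted P = 0.387 from limma), past the unadjusted threshold but not after adjustment, with 1.57, 0.73 and 1.56 within slides. It passed in 7 of 9 fits that left out 1 array, and the call was lost without siGATA3 replicate 3 (0.96) or siHIF1A replicate 1 (1.03). Compared with si-Control, SPRED1 differed by 0.78 in siGATA3, higher on 3 of 3 slides, and by -0.51 in siHIF1A (adjusted P = 0.826), lower on 3 of 3 slides. The latter was -0.037 without si-Control replicate 3 and -0.98 without si-Control replicate 1.

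PHLDA1, a pleckstrin-homology protein induced by ERK that dampens receptor kinase and AKT signalling, resembled DUSP6. It was at 9.37, 10.37 and 11.74 in si-Control, 12.10, 10.91 and 12.10 in siGATA3, and 10.61, 10.08 and 10.95 in siHIF1A. Within each slide siGATA3 was the highest of the 3 groups. The siGATA3 minus siHIF1A difference was 1.15 (2.22-fold, standard error 0.56, adjusted P = 0.427 from limma), with 1.48, 0.82 and 1.15 within slides. It passed the unadjusted threshold only with the slide as a block, in a separate fit of the 6 arrays and in 3 of 9 fits that left out 1 array. Here too, fits without a si-Control array change the standard error and not the size of the difference. The siGATA3 minus si-Control difference was 1.21, of which slide 1 had 2.73 and slides 2 and 3 had 0.54 and 0.35. Between siHIF1A and si-Control it was 0.06 (adjusted P = 0.983, 95% interval -1.20 to 1.32).

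Over the set, siGATA3 minus si-Control differences were positive for 8 of 10 genes and negative for ETV1 and DUSP5, with a median of 0.47 against -0.02 over all genes. The ETV1 value sets arrays of different slides against each other. On slide 3, where both groups were measured, it was 0.62, and its 3 other probes were higher on 3 of 3 slides. When 1 array was left out, ETV1 ran from -1.03 to 0.62, DUSP5 from -1.20 to 0.042, SPRY2 from -0.20 to 0.35 and SPRY4 from -0.36 to 0.23, so the sign of these 4 genes rested on single arrays. This comparison chose the set, so its sign count and median are a description, and nothing is read from them beside all genes. The 1 member of 10 at the unadjusted threshold, ETV5, follows from the choice, and nothing is read from its standing beside the 2.97% of 47720 genes there. The sign counts and medians of the other 2 comparisons, given next, also include ETV5. In siHIF1A minus si-Control, 6 of 10 genes were positive, the median was 0.22 against -0.01 over all genes, and 2 of the 9 members tested (DUSP4 and ETV4, both higher) passed the unadjusted threshold. There 5.23% of 47368 genes passed it, 1.95% as higher, and 13.3% had no overlap, 5.16% as higher, as both of these members did. In siGATA3 minus siHIF1A, 6 of 10 were positive, the median was 0.27 against 0.00 over all genes, and 1 of 9 passed (SPRED1, higher), a share near the 12% of all genes that passed, 6.93% as higher. SPRED1 and DUSP4 had no overlap there, and 22.8% of all genes had none. After Benjamini-Hochberg adjustment 0 of 9 members passed in either of the last 2 comparisons, where 0% and 0.00422% of all genes did, with adjusted P values from 0.695 to 0.991 and from 0.387 to 0.861 in limma. The siGATA3 comparison with si-Control shares arrays with each of the others, so the 3 columns of differences are not independent.

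**Figure D3:**
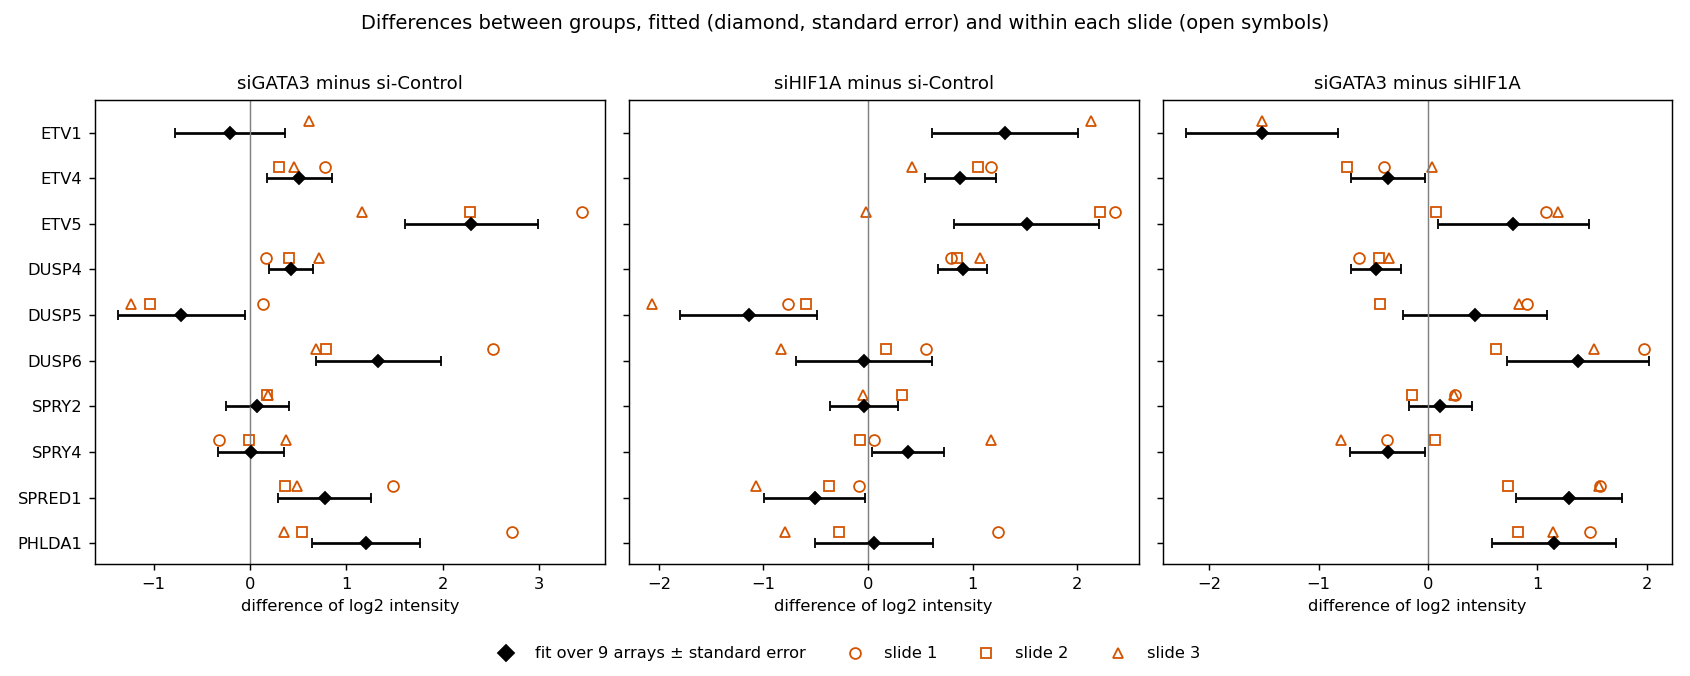
Differences of log2 intensity (horizontal axis) for the 10 genes in the 3 comparisons, with diamonds and bars for the fit over 9 arrays and its standard error and open symbols for each slide. The DUSP4 slides lie between 0.79 and 1.07 in siHIF1A minus si-Control, and the DUSP6, SPRED1 and PHLDA1 slides all lie right of 0 in siGATA3 minus siHIF1A.

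Slide 3 stood out in these genes, but not only in them. Among the other pathway genes described below, replicate 3 was the highest si-Control array for many, such as EGFR and ETS1. For others, such as FGFR3 and TGFA, it was the lowest. Of the 8 members with a value on all arrays, replicate 3 was the highest array of its group for 6 in si-Control, 7 in siGATA3 and 7 in siHIF1A, and for 5 (ETV5, DUSP5, DUSP6, SPRED1 and PHLDA1) in all 3 groups. Over all genes those shares were 45.8%, 40.7% and 28.6%, and 8.15% in all 3 groups. In si-Control the median gap of replicate 3 above the mean of replicates 1 and 2 was 1.65 in the members and 0.09 over all genes, against 0.87 and 0.07 in siGATA3 and 0.53 and 0.01 in siHIF1A. The si-Control array of slide 3 was also the dimmest array. In siHIF1A minus si-Control, 2 of 9 members were at the unadjusted threshold without it, beside 3.54% of all genes. It does not enter siGATA3 minus siHIF1A, so leaving it out changes only the shared estimate of spread there and not the differences. In that fit 4 of 9 members were at the unadjusted threshold, where 20% of all genes were. Without all 3 arrays of slide 3, a setting chosen after the data were seen, ETV5 differed by 2.86 between siGATA3 and si-Control, 2 of 9 members (DUSP4 and ETV4) were counted in siHIF1A minus si-Control, beside 2.97% of all genes, and 2 of 9 in siGATA3 minus siHIF1A, beside 6.11%. With the slide as a block, 4 of 9 members passed in siHIF1A minus si-Control (8.41% of all genes) and 4 of 9 in siGATA3 minus siHIF1A (18.7% of all genes). Both counts include ETV1, which under the block rests on slide 3 and its lone siHIF1A array. Its 5 values were as many as the terms of the blocked model, so its spread came wholly from other genes. The ETV1 call is therefore no measure of its own variation. The other 3 were ETV4, DUSP4 and DUSP5 in the first comparison and DUSP6, SPRED1 and PHLDA1 in the second.

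Over the 9 arrays, the genes whose log2 intensity ran most like that of ETV5 were SEC22C (Pearson r 0.97), CMTM6 (0.97), VAMP1 (0.96) and PHLDA2 (0.96), and the most opposite were WDR55 (-0.96) and LOC283788 (-0.91). The search covered 15917 genes with a RefSeq symbol that had a value and were well above background on all arrays. SEC22C and VAMP1 act in vesicle traffic, CMTM6 keeps PD-L1 at the cell surface, and PHLDA2 is an imprinted relative of PHLDA1. PHLDA2 was at 10.60, 10.45 and 11.71 in si-Control, 12.47, 11.69 and 12.89 in siGATA3, and 11.37, 11.83 and 11.70 in siHIF1A. Among the members r with ETV5 was 0.84 for PHLDA1, 0.83 for DUSP6, 0.79 for ETV4, 0.65 for SPRED1, 0.64 for SPRY2 over 8 arrays, 0.49 for DUSP4 and 0.28 for DUSP5. The 2 SPRY4 probes had opposite signs, -0.50 for the brightest and 0.52 for A_24_P269062. The ETV1 probes A_33_P3401156, A_33_P3357949 and A_32_P78491 had 0.90, 0.76 and 0.60, and the brightest had -0.47 over 5 arrays. These coefficients describe 9 arrays that share slides and a common normalization, and the genes were picked as the extremes of many.

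Other genes of the pathway were read in 6 lists with 96 genes tested. In siHIF1A minus si-Control, 0 passed the unadjusted threshold as higher and 4 as lower (4.17%, against 5.23% of all genes), none after adjustment. By direction, 1.95% of all genes passed as higher and 3.28% as lower. The 4 lower genes were ETS1, ARAF, ELF1 and DUSP1. ETS1, the founding ETS factor and an ERK substrate, was at 14.46, 15.62 and 16.63 in si-Control, 16.28, 15.49 and 16.84 in siGATA3, and 12.91, 13.69 and 14.29 in siHIF1A. Every siHIF1A array was below every other array. The difference from si-Control was -1.94 (standard error 0.57, adjusted P = 0.823 from limma), and siGATA3 minus siHIF1A was 2.57 (adjusted P = 0.213), each past the unadjusted threshold in 9 of 9 fits that left out 1 array. ARAF, a RAF kinase, was lower by -2.01 (adjusted P = 0.298) by its brightest probe, while its other probe, A_23_P73511, gave -0.10 (adjusted P = 0.942 over all probes). ELF1, an ETS factor of the ELF subfamily, was lower by -1.12 and by -1.11 on its 2 probes, and DUSP1, a phosphatase of stress and mitogen kinases, by -0.99. The ELF1 and DUSP1 calls were each lost in 3 of 9 fits that left out 1 array, among them the fit without si-Control replicate 3 (-0.71 and -0.57). That count of 4 was 4 without si-Control replicate 3, of which 2 were higher (4.17%, against 3.54% of all genes). It was 18 without si-Control replicate 1, of which 17 were lower (18.8%, against 10.1% of all genes). With the slide as a block it was 10, all lower (10.4%, against 8.41% of all genes), and the 6 added were FOSL1, MAFF, DUSP9, DUSP10, ATXN1 and ERF, named for their blocked values.

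In siGATA3 minus siHIF1A, 13 of the 96 genes passed as higher and 1 as lower (14.6%, against 12% of all genes), and 0 after adjustment. By direction, 6.93% of all genes passed as higher and 5.05% as lower. Of the 27 RAS-ERK core genes, 6 were higher, namely ARAF (2.48, but 0.06 by its other probe), the ERK kinase MAP2K1 (1.72), the receptor FGFR1 (1.33), the adaptor GRB2 (1.24), the RAS inactivator NF1 (1.15) and NRAS (1.08). MAP2K1 had no value on siHIF1A replicate 3, so 3 siGATA3 arrays were set against 2. Its difference was 2.25 and 0.83 on slides 1 and 2, and 1.39 with the slide as a block. The FGFR1 probe A_23_P301304 (1.21, adjusted P = 0.445 from limma over all probes) did not pass the unadjusted threshold. Nor did the NF1 probe A_24_P917026 (0.85, adjusted P = 0.414), while the remaining NF1 probes did. The receptor FGFR2 was the 1 core gene that was lower (-0.69), while its other probe, A_24_P206624, gave -0.33 (adjusted P = 0.666 over all probes), with 2 of 3 slides higher. Of the 16 other feedback and phosphatase genes 3 were higher, DUSP1 (1.44), DUSP7 (1.21) and DUSP2 (0.88), and of the 15 early genes 2 were, the AP-1 subunit FOSL1 (1.81) and MAFF (1.44). FOSL1 was at 16.05, 15.89 and 17.28 in si-Control, 17.46, 16.28 and 17.56 in siGATA3, and 15.02, 14.70 and 16.14 in siHIF1A, so all siGATA3 arrays were above all siHIF1A arrays. The urokinase receptor PLAUR (1.31) was the 1 of 11 output genes, and ETS1 (2.57) the 1 of 19 ETS factors tested. Adjusted P values of these 14 genes lay between 0.129 and 0.397 in limma. The total was 13 (11 higher) without slide 3, where 6.11% of all genes passed, and ran from 8 to 23 when 1 array was left out. It was 8 without siGATA3 replicate 3 (8.33%, against 5.7% of all genes) and 8 without siHIF1A replicate 1 (8.33%, against 6.48%). The 23 were without si-Control replicate 3 (24%, against 20% of all genes). With the slide as a block 18 passed as higher and 4 as lower (22.9%, against 18.7% of all genes), and ARAF, ETS1 and FOSL1 then also passed after adjustment (adjusted P = 0.0430, 0.0473 and 0.0492 from limma). The share of all genes that passed after adjustment with the block was not counted, so nothing is read from these adjusted calls.

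Known regulators of PEA3 factors had lower values in siHIF1A, none past the threshold without the slide as a block and with all arrays. This list has the repressor CIC with its partners ATXN1 and ATXN1L, the ETS repressor ERF, the ubiquitin ligase parts COP1 and DET1, and the coactivators CREBBP and EP300, which act on PEA3 factors by acetylation. In siHIF1A minus si-Control all 8 differences were negative with a median of -0.53, against -0.01 over all genes, and 0 of 8 passed the unadjusted threshold. The largest were ATXN1 (-0.89, adjusted P = 0.823 from limma), at 12.66, 13.09 and 14.29 in si-Control and 12.24, 12.68 and 12.47 in siHIF1A, and ERF (-0.72, adjusted P = 0.823), lower on 3 of 3 slides. With the slide as a block, 2 of 8 passed, ATXN1 (adjusted P = 0.590) and ERF (adjusted P = 0.527). Without si-Control replicate 3 the count was 6 of 8 lower and the median -0.21. In siGATA3 minus si-Control 6 of 8 were negative, with a median of -0.09.

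**Figure D4:**
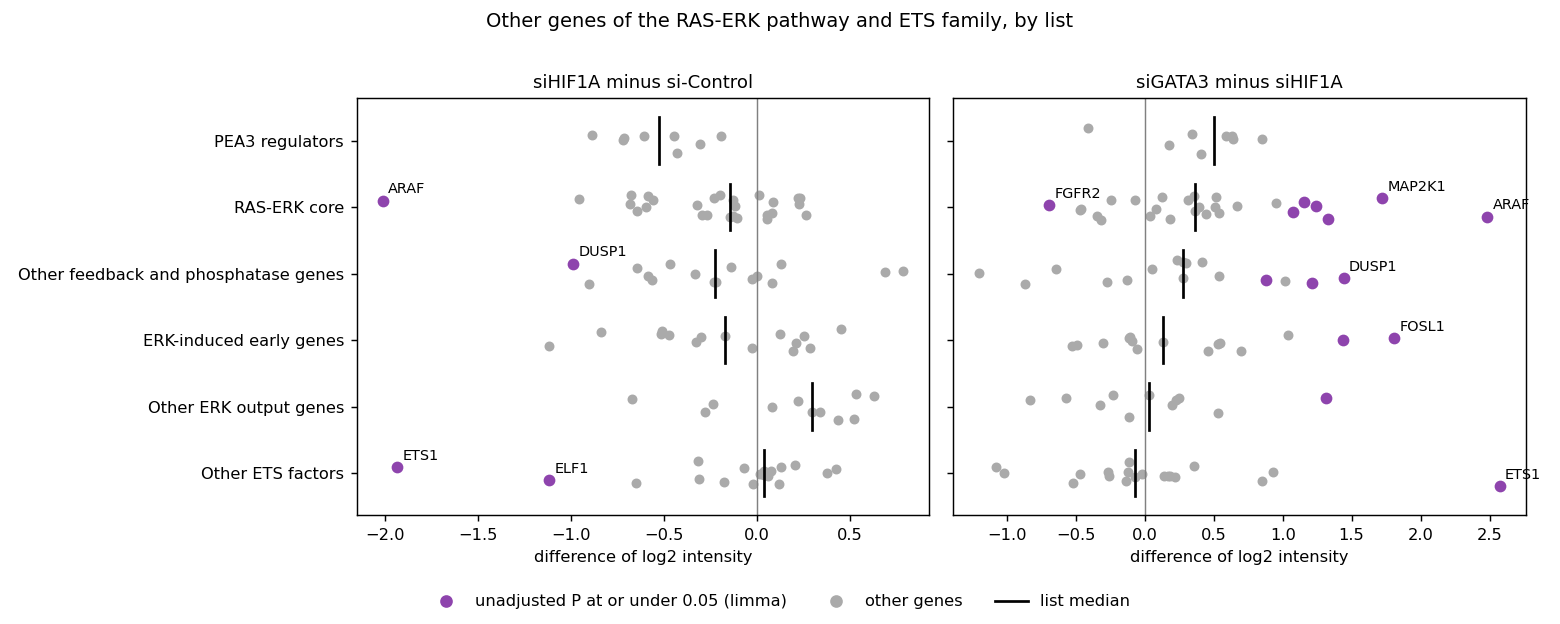
Differences of log2 intensity (horizontal axis) for the 96 other pathway genes by list (rows), in siHIF1A minus si-Control and in siGATA3 minus siHIF1A, with vertical spread within a row for legibility only, purple points at an unadjusted P of 0.05 or less, grey points otherwise and a bar at the list median. The 4 purple points on the left are all below 0, and 13 of the 14 on the right are above 0.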

How the data were processed

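The authors deposited 1 file per array from Agilent Feature Extraction 10.5.1.1, with median spot and local background intensity on a linear scale, not normalized between arrays. They also deposited a table of log2 values, of which at least 99.8% per array lay within 0.001 of the log2 processed signal less a constant. The design named the spot signal, and the median spot signal held by the files was used. Control spots were removed, and a spot that the scanner software called non-uniform had no value. Background was corrected by normexp with an offset of 50, and arrays were quantile normalized in limma 3.58.1 (R 4.3.3), following the background, normalization and test named in the supplementary methods. Repeated spots were averaged per probe, and a gene took the values of its brightest probe over all arrays. Symbols came from RefSeq, for 31104 of 58201 probes.

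All 9 arrays were fitted in 1 model of 3 groups with lmFit and eBayes. Genes were called at an unadjusted two-sided P of 0.05. The supplementary methods name a P below 0.05 for the arrays and do not say whether it was adjusted or two-sided. Benjamini-Hochberg adjusted P values were taken over all genes, or over all probes where a single probe is named. Of the pathway lists, the genes called in either siHIF1A comparison and detected above background throughout at least 1 group were named, and otherwise the 2 largest siHIF1A differences of a list. The members and lists were chosen with earlier results of these data known. The fit was tested on simulated arrays with independent noise and no slide effect, so that test does not cover the differences between slides seen here. Precision is limited by how few arrays there are. The settings varied were the source of values (processed signal with 75th percentile scaling, or the authors' log2 table), the background step (normexp with offset 0, or none), 75th percentile scaling after normexp, removal of dim probes, use of non-uniform spots, averaging over a gene's probes, the slide as a block, fits limited to the 6 arrays compared, trended and robust eBayes, the threshold (adjusted P, or at least 1.5-fold) and the omission of each array. Omitting an array of the group outside a comparison changes only the shared estimate of spread there, not the differences. Omitting slide 3 was added after the data were seen.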

Additional observations from a re-analysis of the deposited data

How the results depend on the processing

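The members counted at the unadjusted threshold were 1 of 10 in siGATA3 minus si-Control, 2 of 9 in siHIF1A minus si-Control and 1 of 9 in siGATA3 minus siHIF1A. The first count holds ETV5 in the comparison that chose it and is a description from which nothing is read. It became 2 with the processed signal (6.39% of all genes), the authors' table (6.05%) or normexp with 75th percentile scaling (2.19%), and 3 without slide 3 (4.57%). The third became 2 with non-uniform spots kept (12% of all genes) or without slide 3 (6.11%), and 4 with separate fits of 6 arrays (18.2%). With adjusted P all 3 counts were 0. Leaving out 1 array gave 1 to 6, 1 to 2 and 0 to 4, while between 2% and 12.7%, 2.98% and 10.1%, and 5.7% and 20.5% of all genes passed. Replicate numbers give the slide, and with this replicate block the counts were 4, 4 and 4, beside 4.99%, 8.41% and 18.7% of all genes. The last 2 of these counts include ETV1, for which the blocked fit measured no spread. Deviations of same-numbered arrays correlated above 0.1 in 7 of 9 pairs, from -0.19 to 0.72, in 3 of 3 pairs of siGATA3 and si-Control and 2 of 3 in each other comparison. Some small differences changed sign. In siHIF1A minus si-Control, DUSP6 was 0.058 with the processed signal, 0.063 with the authors' table, 0.0058 with non-uniform spots kept and 0.36 without slide 3. SPRY2 was 0.035, 0.26 and 0.23 under the first 3 of these, 0.10 with the block and 0.10 without slide 3. ETV1 was -0.042 with the mean of its probes, and without slide 3 SPRY4 was -0.011 by its brightest probe and 0.023 by A_24_P269062. In siGATA3 minus siHIF1A, the mean of probes gave 0.89 for ETV1 and 0.083 for SPRY4, and the authors' table -0.0069 for SPRY2. There the ETV1 probe A_33_P3401156 was -0.033 with the processed signal, -0.055 with the authors' table and -0.17 without slide 3. Leaving out 1 array turned the sign of 4 siHIF1A minus si-Control differences, with ranges of -0.66 to 0.69 for DUSP6, -0.31 to 0.23 for SPRY2, -0.51 to 0.68 for PHLDA1 and -0.050 to 0.44 for the ETV1 probe A_33_P3357949, and of 3 siGATA3 minus siHIF1A differences, with -0.055 to 0.92 for DUSP5, -0.080 to 0.24 for SPRY2 and -0.074 to 0.43 for A_33_P3401156. The cause of these changes was not tested. Scaling normexp values to the 75th percentile moved the median of all genes in siGATA3 minus siHIF1A to 0.15, and the other scalings kept it within 0.1 of 0.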
